A study of Mus musculus with 4 samples.

Results

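The genes described here are 10 members of the integrated stress response and of serine synthesis: Atf4, Atf5, Ddit3, Trib3, Chac1, Sesn2, Asns, Psat1, Phgdh and Shmt2. They were found by gene name among the non-control probes of the NSCL61 array and then read on each of the 4 arrays of the study, which gave 13 of 55681 probes and 10 of the 22323 genes with a named probe. The 4 groups had 1 single-colour array each. NSCL61-Ceacam1sh were cells of the NSCL61 line carrying a short hairpin RNA against Ceacam1, an adhesion molecule of the immunoglobulin family, and NSCL61 was the line itself, which forms gliomas in mice and derives from p53-null neural stem cells given an active Ras. NSC-Ceacam1L were neural stem cells expressing the long form of Ceacam1, and NSC were the neural stem cells themselves. All 4 groups shared the p53-/- genotype, came per the labels from brain of E14.5 embryos, grew in serum-free medium, and fell under a protocol of vector transfection and hygromycin selection for 1 week. The labels do not say whether the cells of the NSCL61 and NSC arrays carried an empty vector, whether any group was 1 clone, or how many embryos were pooled. The study looked for genes downstream of Ceacam1 by comparing NSC-Ceacam1L with NSC and NSCL61-Ceacam1sh with NSCL61. One more comparison, NSCL61 with NSC, sets the line against the stem cells. NSC enters 2 of these comparisons and so does NSCL61, so their results are not independent.

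The integrated stress response begins with kinases that phosphorylate the translation factor eIF2 when amino acids are short, when unfolded protein builds up in the endoplasmic reticulum (ER), or under other stress. General translation then slows, while the messages of the transcription factors ATF4 and ATF5 are translated more. ATF4, often together with CHOP (the product of Ddit3) and C/EBP partners, raises the transcription of genes for amino acid synthesis and uptake, and of genes such as Trib3 that feed back on it. Serine is made from a glycolytic intermediate by PHGDH, PSAT1 and PSPH in turn, and SHMT2 passes its one-carbon unit to mitochondrial folate while making glycine. Serine synthesis is known to supply proliferating neural progenitors and glioma cells. The arrays measure RNA and do not show the translation step.

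With a single array in each group the differences have no check against replicates, they carry no p-value, and their precision is limited by the number of arrays. The arrays shared 1 slide, and slide position cannot be told apart from group. Values are processed signals divided by the 75th percentile of each array (scaled signal). Differences are in log2 of these, with the modelled spot error of the scanner software, which covers technical error within an array. A gene was called higher or lower at 2-fold or more, provided that the brighter array showed its probe well above background. Between NSCL61 and NSC, 14.4% of 15299 genes were called higher and 14.0% lower. Between NSCL61-Ceacam1sh and NSCL61, 23.4% of 15610 genes were called higher and 24.2% lower, so that 47.7% passed 2-fold in one direction or the other. Between NSC-Ceacam1L and NSC, 10.5% of 15314 genes were called higher and 6.05% lower. The split of calls moved with the scaling. Higher calls were 50.7% of the calls between NSCL61 and NSC, and 39.7% with spike-in scaling. They were 49.2% between NSCL61-Ceacam1sh and NSCL61, 64.5% with median scaling and 64.9% with spike-in scaling. For NSC-Ceacam1L against NSC they were 63.4%, and 76.4%, 75.4% and 84.2% with cyclic loess, with the percentile over probes seen on all arrays and with spike-in scaling.

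No probe analysed here was named for Ceacam1, so the manipulated gene itself was not checked and the groups stand as the arrays labelled with these names. Of 9 neural stem cell markers, 8 were well above background on NSCL61-Ceacam1sh (Hes5 was not), 8 on NSCL61 (Prom1 was not), 9 on NSC-Ceacam1L and 9 on NSC. Fabp7 was counted on NSCL61-Ceacam1sh at a scaled signal of 0.0625, against 329.5 on NSCL61. Between these arrays 5 of the 9 markers were called lower and 1 higher. Their summed scaled signal was 321 on NSCL61-Ceacam1sh, 931 on NSCL61, 673 on NSC-Ceacam1L and 846 on NSC. Vim alone made up 280 of the sum on NSCL61-Ceacam1sh and 434 of that on NSCL61. The median log2 signal of the 9 markers was -0.35 on NSCL61-Ceacam1sh, 4.12 on NSCL61, 3.82 on NSC-Ceacam1L and 3.55 on NSC. The 7 astrocyte markers summed to 3.75 on NSCL61-Ceacam1sh, with Gfap, Slc1a2 and S100b not above background, against 702 on NSCL61, 502 on NSC-Ceacam1L and 283 on NSC. Aldoc alone made up 402 of the sum on NSCL61, 414 of that on NSC-Ceacam1L and 231 of that on NSC. The 10 proliferation markers, each well above background everywhere, summed to 496 on NSCL61-Ceacam1sh, 60.3 on NSCL61, 135 on NSC-Ceacam1L and 288 on NSC. The 10 hypoxia and glycolysis genes summed to 654, 455, 272 and 831 on the same arrays in that order. Oligodendrocyte markers summed to 2.48 on NSCL61-Ceacam1sh, 122 on NSCL61, 191 on NSC-Ceacam1L and 198 on NSC. Fibroblast markers summed to 21.7, 0.388, 13.6 and 2.33 in that order, but from different genes. Thy1 gave 13.04 of the fibroblast sum on NSC-Ceacam1L and 1.996 of that on NSC, where Col3a1, Dcn and Lum were not above background on either array. On NSCL61-Ceacam1sh Thy1 was not above background, and Dcn (9.9), Col1a2 (4.73), Pdgfrb (3.27) and Col3a1 (2.77) gave most of the sum. The 5 neuron markers summed to 9.36 on NSCL61-Ceacam1sh, with Dcx and Rbfox3 not above background, 62.0 on NSCL61, 28.98 on NSC-Ceacam1L and 25.7 on NSC. These lists move with the comparisons below, and their part in the results was not tested. In bulk RNA, fewer cells of a type and less RNA per cell cannot be told apart.

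The promoters of 5 members that were called in at least 1 comparison are shown, as the stretch in which ATF4 and its partners are known to act on several of them. Each is the 250 bases before the RefSeq transcription start of the gene (GRCm38.p6), 5′ to 3′ on the strand of the gene. Capitals mark a match to TGATGNAA, the core of the composite site that ATF4 binds with a C/EBP partner, read on either strand, or to the run TGGTGCAATCCC, the longest that windows of 2 different members share, which was noticed after the sequences had been viewed. Trib3 lies at chr2:152344061-152344310 on the minus strand, Chac1 at chr2:119350992-119351241 on the plus strand, Ddit3 at chr10:127290543-127290792 on the plus strand, Asns at chr6:7693210-7693459 on the minus strand and Phgdh at chr3:98339970-98340219 on the minus strand.
Trib3: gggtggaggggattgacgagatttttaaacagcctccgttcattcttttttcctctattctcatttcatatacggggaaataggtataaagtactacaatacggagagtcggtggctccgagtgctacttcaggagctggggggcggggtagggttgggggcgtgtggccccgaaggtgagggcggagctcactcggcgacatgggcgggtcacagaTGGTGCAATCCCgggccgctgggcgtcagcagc
Chac1: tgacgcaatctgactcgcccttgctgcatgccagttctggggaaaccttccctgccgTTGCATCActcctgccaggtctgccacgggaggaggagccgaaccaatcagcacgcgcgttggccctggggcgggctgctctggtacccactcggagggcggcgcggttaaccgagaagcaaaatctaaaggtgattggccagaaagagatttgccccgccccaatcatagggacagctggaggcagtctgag
Ddit3: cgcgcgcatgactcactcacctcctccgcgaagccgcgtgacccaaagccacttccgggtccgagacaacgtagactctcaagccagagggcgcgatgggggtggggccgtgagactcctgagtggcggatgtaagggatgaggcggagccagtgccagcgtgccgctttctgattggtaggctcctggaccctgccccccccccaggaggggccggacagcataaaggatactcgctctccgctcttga
Asns: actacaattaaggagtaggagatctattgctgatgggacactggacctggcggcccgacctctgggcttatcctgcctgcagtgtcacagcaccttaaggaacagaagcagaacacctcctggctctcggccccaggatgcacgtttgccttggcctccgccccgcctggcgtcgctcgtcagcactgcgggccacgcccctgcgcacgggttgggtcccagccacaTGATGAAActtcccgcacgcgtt
Phgdh: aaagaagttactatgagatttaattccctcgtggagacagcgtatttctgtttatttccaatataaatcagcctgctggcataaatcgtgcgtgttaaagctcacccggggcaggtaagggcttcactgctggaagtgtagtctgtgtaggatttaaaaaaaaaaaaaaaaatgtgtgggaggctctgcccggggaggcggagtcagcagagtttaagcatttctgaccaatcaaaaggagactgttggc

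All 10 members had an entry in the RefSeq promoter table, in 12 windows of 300 bases that run from 250 before to 50 after a start. TGATGNAA was present in 3 of these 12 windows and in 3.97% of all 32851 windows. In Asns it lay 23 to 16 bases before the start, and in Chac1 it lay 193 to 186 bases before it on the opposite strand. In Trib3 it lay just after the start, on the opposite strand, in the following 30 bases at chr2:152344026-152344055 on the minus strand (capitals mark the match).
Trib3: agctcaggtTTACATCAgccgggcggggat
TGACGTCA, a palindromic cyclic AMP response element that ATF family members bind, was in 1.79% of all windows and in 0 of the 12. The ER stress element (ERSE, either strand) was in 0.119% of all windows and in 0 of the 12. The run TGGTGCAATCCC was in 4 of the 32851 windows, of which 2 were those of Trib3 and Psat1. In Psat1 it lay 136 to 125 bases before the start, shown in capitals within 30 bases at chr19:15925175-15925204 on the minus strand.
Psat1: gcgggtggcTGGTGCAATCCCctgctctct
A match says that these letters are in the window, and the absence of one says nothing about the factor. The windows of Ddit3 and Phgdh, which hold no capitals, belong to genes with large differences between arrays, as do those of Trib3 and Chac1.

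Every member probe, 13 of 13, was well above background on each of the 4 arrays, so that no level below is a bound. The highest array exceeded the lowest 21.3-fold for Trib3, 11.5-fold for Ddit3, 7.62-fold for Chac1 and 5.10-fold for Phgdh. The other members spanned 3.18-fold (Asns), 2.34-fold (Atf4), 2.26-fold (Shmt2), 1.92-fold (Sesn2), 1.36-fold (Psat1) and 1.24-fold (Atf5). The plot of scaled signals by array shows that they fall into different orders and that no single array was highest for all of them.

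**Figure D1:**
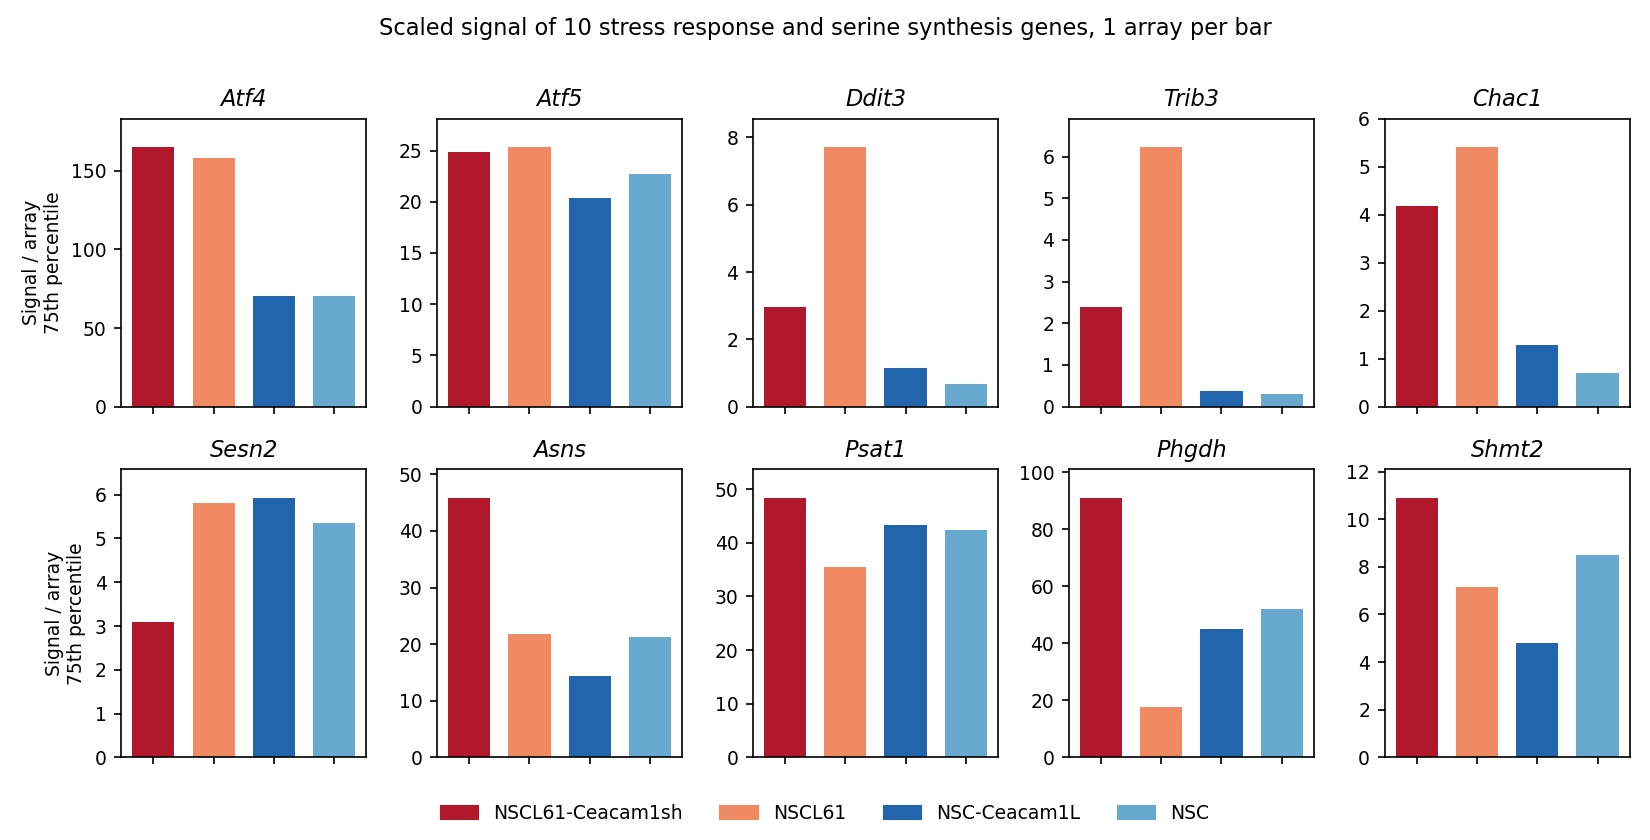
Scaled signal (processed signal over the 75th percentile of the array, linear axis from 0) of each of the 10 genes, 1 bar per array in the order NSCL61-Ceacam1sh, NSCL61, NSC-Ceacam1L, NSC. Trib3, Ddit3 and Chac1 peak on NSCL61, whereas Phgdh and Asns peak on NSCL61-Ceacam1sh, and heights can be compared within a panel, not between panels.

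Among the transcription factors, Atf4, the central effector of the response, was measured by a probe at chr15:80087902-80087961 (mm9, plus strand). Its scaled signal was 164.8 on NSCL61-Ceacam1sh, 158 on NSCL61, 70.3 on NSC-Ceacam1L and 70.4 on NSC. The 2 arrays of the NSCL61 line were thus high and the 2 stem cell arrays low, with almost no difference inside either pair in the main setting. Atf4 was called higher in NSCL61 than in NSC, by 1.17 ± 0.20. It differed by 0.06 ± 0.20 between NSCL61-Ceacam1sh and NSCL61, and by -0.00 ± 0.20 between NSC-Ceacam1L and NSC, both within the modelled error. A second probe (chr15:80086639-80086698) gave 1.33 between NSCL61 and NSC. With spike-in scaling the first probe gave 0.93, under 2-fold. The differences inside the pairs moved past the modelled error with the scaling. Over the other settings they ran from -0.41 to 0.49 between NSCL61-Ceacam1sh and NSCL61, and from -0.00 to 0.50 between NSC-Ceacam1L and NSC.

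Atf5, whose message is controlled at translation as that of Atf4 is, was flat in the main setting. Over the other settings its difference between NSCL61-Ceacam1sh and NSCL61 ran from -0.30 to 0.40. Its signal (probe at chr7:52067627-52067686, minus strand) was 24.8 on NSCL61-Ceacam1sh, 25.3 on NSCL61, 20.3 on NSC-Ceacam1L and 22.7 on NSC, and none of its 3 differences passed the modelled error.

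Ddit3, which encodes CHOP, a factor linked to cell death under prolonged ER stress, was measured by a probe whose mm9 coordinates span 304 bases (chr10:126732518-126732821, plus strand). Its signal was 2.97 on NSCL61-Ceacam1sh, 7.70 on NSCL61, 1.13 on NSC-Ceacam1L and 0.671 on NSC. All 4 arrays stood apart from their neighbours by more than the modelled error, with NSCL61 highest and NSC lowest. The gene was 11.5-fold higher in NSCL61 than in NSC (3.52 ± 0.21), a difference above those of 99.4% of the 13390 genes seen on both arrays. In NSCL61-Ceacam1sh it was lower than in NSCL61, by 2.59-fold (-1.37 ± 0.20). On NSC-Ceacam1L it stood 0.76 ± 0.21 above NSC, under 2-fold.

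Of the feedback and effector targets, Trib3, a pseudokinase that binds ATF4 and restrains it, had the largest range. Its probe at chr2:152163161-152163220 (minus strand) read 2.39 on NSCL61-Ceacam1sh, 6.22 on NSCL61, 0.373 on NSC-Ceacam1L and 0.292 on NSC. Both arrays of the line lay above both stem cell arrays, and NSCL61 was the highest. Trib3 was 21.3-fold higher in NSCL61 than in NSC (4.41 ± 0.22), the 36th largest difference among 13390 genes. It was 2.60-fold lower in NSCL61-Ceacam1sh than in NSCL61 (-1.38 ± 0.20), and it differed by 0.36 ± 0.22 between NSC-Ceacam1L and NSC.

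Chac1 encodes an enzyme that degrades glutathione and is a known target of the ATF4 and CHOP branch. Its signal (probe at chr2:119179990-119180049, plus strand) was 4.19 on NSCL61-Ceacam1sh, 5.40 on NSCL61, 1.28 on NSC-Ceacam1L and 0.708 on NSC. The order of the arrays was the one seen for Ddit3 and Trib3. Chac1 was 7.62-fold higher in NSCL61 than in NSC (2.93 ± 0.21). The difference of -0.37 ± 0.20 between NSCL61-Ceacam1sh and NSCL61 was under 2-fold, and with spike-in scaling it was 0.06. For NSC-Ceacam1L against NSC it was 0.85 ± 0.21, also under 2-fold, and 1.23 with spike-in scaling.

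Sesn2, a leucine sensor that restrains the growth kinase mTORC1, did not follow these 3 genes. Its signal (probe at chr4:132048858-132048917, minus strand) was 3.09 on NSCL61-Ceacam1sh, 5.82 on NSCL61, 5.92 on NSC-Ceacam1L and 5.35 on NSC. It stood lowest on NSCL61-Ceacam1sh, with a difference of -0.91 ± 0.20 from NSCL61 that fell just short of 2-fold. It was past 2-fold with quantile normalization (-1.06), cyclic loess (-1.06) and the percentile over probes seen on all arrays (-1.09), which made 3 members lower there. The other 3 arrays lay within the modelled error of each other.

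The enzymes of amino acid synthesis gave another pattern. Phgdh, the first and committed step of serine synthesis, read 90.8 on NSCL61-Ceacam1sh, 17.8 on NSCL61, 45.1 on NSC-Ceacam1L and 51.9 on NSC (probe at chr3:98117215-98117274, minus strand). NSCL61 was lowest and NSCL61-Ceacam1sh highest, and the 2 stem cell arrays lay between them within the modelled error of each other. Phgdh was 2.91-fold lower in NSCL61 than in NSC (-1.54 ± 0.20), and 5.10-fold higher in NSCL61-Ceacam1sh than in NSCL61 (2.35 ± 0.20). A second probe (chr3:98117303-98117361) gave -1.65 and 2.41 for the same differences. Phgdh differed between NSC-Ceacam1L and NSC by -0.20 ± 0.20.

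Psat1, which carries out the next step, read 48.3 on NSCL61-Ceacam1sh, 35.4 on NSCL61, 43.3 on NSC-Ceacam1L and 42.3 on NSC (probe at chr19:15979622-15979681, minus strand). Its order of arrays matched that of Phgdh at the top and bottom, but the range was 1.36-fold and no difference reached 2-fold. The difference between NSCL61-Ceacam1sh and NSCL61 was 0.45 ± 0.20, and 0.50 by a second probe.

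Asns, asparagine synthetase, read 45.8 on NSCL61-Ceacam1sh, 21.8 on NSCL61, 14.4 on NSC-Ceacam1L and 21.25 on NSC (probe at chr6:7625171-7625228, minus strand). NSCL61 and NSC lay within the modelled error of each other, NSCL61-Ceacam1sh was highest and NSC-Ceacam1L lowest. Asns was 2.10-fold higher in NSCL61-Ceacam1sh than in NSCL61 (1.07 ± 0.20), and with quantile normalization the difference was 0.82. Its differences were 0.04 ± 0.20 between NSCL61 and NSC and -0.56 ± 0.20 between NSC-Ceacam1L and NSC.

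Shmt2, the mitochondrial serine hydroxymethyltransferase, read 10.9 on NSCL61-Ceacam1sh, 7.16 on NSCL61, 4.82 on NSC-Ceacam1L and 8.48 on NSC (probe at chr10:126954811-126954870, minus strand). Like Asns, it was highest on NSCL61-Ceacam1sh and lowest on NSC-Ceacam1L. None of its differences passed 2-fold: 0.60 ± 0.20 between NSCL61-Ceacam1sh and NSCL61, -0.24 ± 0.20 between NSCL61 and NSC, and -0.82 ± 0.20 between NSC-Ceacam1L and NSC. The first of these was past 2-fold with median scaling (1.02) and with spike-in scaling (1.03).

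**Figure D2:**
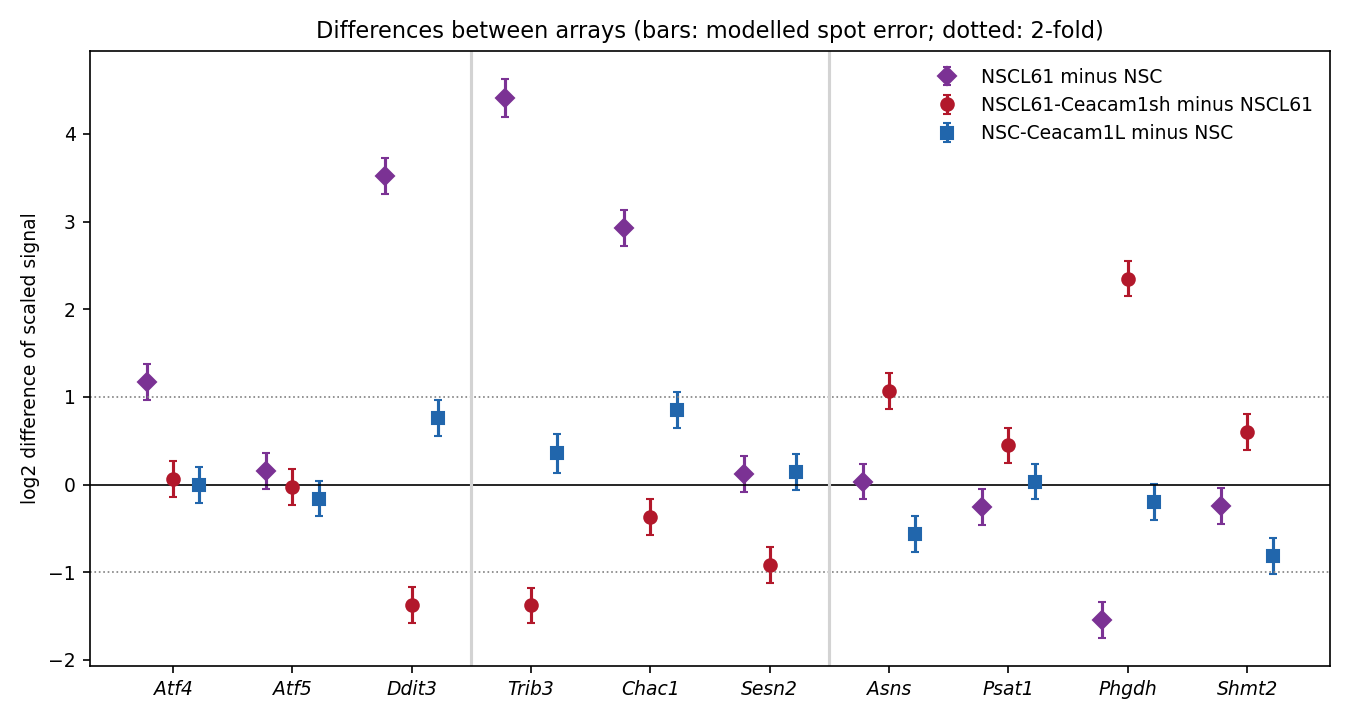
Difference in log2 scaled signal for each of the 10 genes (points) in the 3 comparisons, with the modelled spot error as bars and dotted lines at 2-fold. The differences between NSCL61 and NSC reach 4.41 for Trib3 and -1.54 for Phgdh, and those between NSC-Ceacam1L and NSC lie between the dotted lines.

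Counted over the members, NSCL61 against NSC gave 4 called higher (Atf4, Ddit3, Trib3 and Chac1), 1 called lower (Phgdh) and 5 called neither, where 14.4% of all genes were called higher, 14.0% lower and 28.4% in either direction. Their median difference was 0.14, beside 0.03 over all genes. NSCL61-Ceacam1sh against NSCL61 gave 2 called higher (Phgdh and Asns), 2 called lower (Trib3 and Ddit3) and 6 called neither, a share near the background of 47.7% in either direction. The median was 0.02 over the members and 0.01 over all genes. NSC-Ceacam1L against NSC gave 0 called in either direction, where 16.5% of all genes were, with differences from -0.82 (Shmt2) to 0.85 (Chac1). The median was 0.02 over the members and -0.10 over all genes. Where Phgdh was called lower (NSCL61 against NSC), Ddit3 and Trib3 were called higher, and where it was called higher (NSCL61-Ceacam1sh against NSCL61), they were called lower, but these 2 comparisons share the NSCL61 array.

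**Figure D3:**
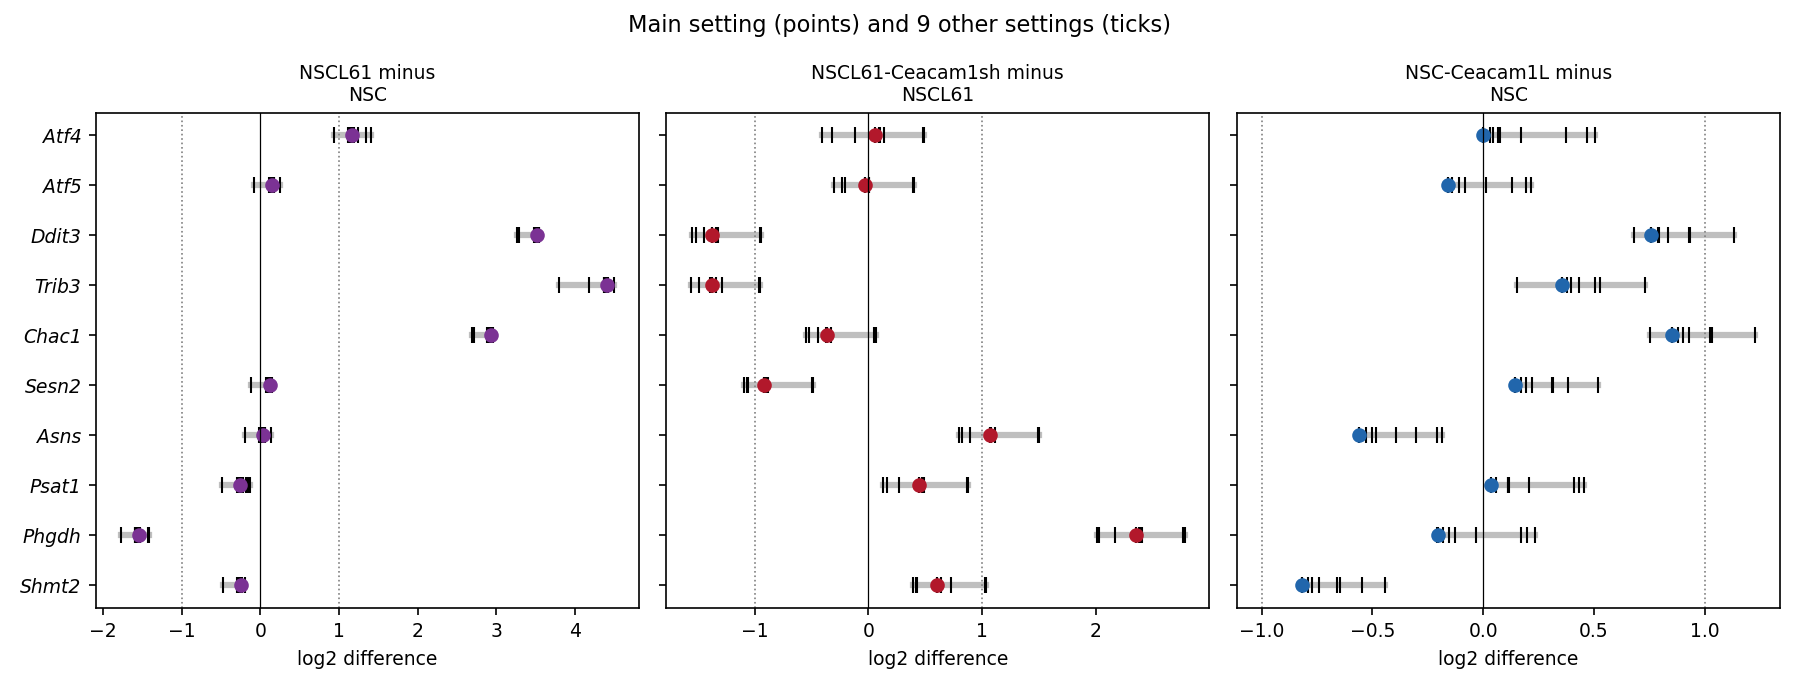
Differences in log2 for each gene under the main setting (points) and 9 other settings of scaling, background correction, filter and probe choice (ticks, joined by grey bars), with dotted lines at 2-fold and a different horizontal scale in each panel. Trib3, Ddit3, Chac1 and Phgdh stay past 2-fold between NSCL61 and NSC under all 9, whereas Trib3 and Ddit3 cross the line between NSCL61-Ceacam1sh and NSCL61. Dropping the dim filter leaves every difference unchanged by construction, as does the mean over probes for genes with a single probe.

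Across the 9 other settings, the difference between NSCL61 and NSC ran from 3.80 to 4.50 for Trib3, from 3.27 to 3.54 for Ddit3, from 2.70 to 2.95 for Chac1 and from -1.77 to -1.41 for Phgdh. Not all of these settings could change a difference. Dropping the dim filter could not, nor could the mean over probes for Trib3, Ddit3 and Chac1, each read by a single probe. Between NSCL61-Ceacam1sh and NSCL61, Phgdh ran from 2.01 to 2.78. Trib3 and Ddit3 stayed lower in NSCL61-Ceacam1sh in all 9 settings but came within 2-fold with median scaling (-0.96 and -0.95) and with spike-in scaling (-0.95 and -0.94).

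The genes around the members were read from lists of known pathway genes, chosen with earlier results of these data in view. Between NSCL61 and NSC the other known targets of ATF4 or CHOP stood mostly on the high side: 7 of 15 were called higher and 1 lower, against 14.4% and 14.0% of all genes, with a median of 0.80. Over the other settings the median ran from 0.57 to 0.82, the number called higher from 4 to 7 and the number called lower from 1 to 2. Nupr1, a small chromatin protein induced by stress, was higher in NSCL61 by 6.76 ± 0.24. Its scaled signal was 27.9 on NSCL61-Ceacam1sh, 15.4 on NSCL61, 0.305 on NSC-Ceacam1L and 0.142 on NSC, high on both arrays of the line and low on both stem cell arrays, with differences inside each pair as well (0.85 ± 0.20 for NSCL61-Ceacam1sh and 1.10 ± 0.24 for NSC-Ceacam1L). Atf3, a stress-induced transcription factor of the ATF family, was higher by 4.17, Cebpb, a C/EBP partner of ATF4, by 1.86, and Ppp1r15a, the phosphatase subunit that restores eIF2, by 1.22. Stc2, a secreted glycoprotein, was lower (-1.87).

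The enzymes next to the members in serine, glycine and folate metabolism leaned the other way between NSCL61 and NSC. Of 17, 1 was called higher and 5 lower, against 14.4% and 14.0% of all genes. Their median was -0.50, beside 0.03 over all genes. Aldh1l2, the mitochondrial formyltetrahydrofolate dehydrogenase, was higher by 3.01. Shmt1, the cytosolic counterpart of Shmt2, was lower (-2.67), as were Aldh1l1 (-1.84), the cytosolic formyltetrahydrofolate dehydrogenase, and Mthfd1l (-1.49), which makes formate in mitochondria. Psph, the last step of serine synthesis, differed by 0.01, and Mthfd2, a mitochondrial folate dehydrogenase, by -0.68, both under 2-fold. The sum of proliferation markers on the same arrays was 60.3 on NSCL61 and 288 on NSC, with 10 of 10 called lower, and its part in these values was not tested.

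Upstream of the members, the eIF2 kinases, phosphatase subunits and eIF2B had 1 of 14 genes called higher between NSCL61 and NSC (Eif2b2, a subunit of eIF2B, 1.31) and 0 lower. Of 20 ER chaperones and genes of the unfolded protein response, 2 were called higher and 0 lower. These were Herpud1, a factor of ER-associated degradation (1.72), and Dnajb9, an ER co-chaperone (1.20, and 0.97 with spike-in scaling). Hspa5, the main ER chaperone, differed by -0.03. None of 20 cytosolic aminoacyl-tRNA synthetases, several of which are known ATF4 targets, was called in either direction, where 28.4% of all genes were. Mars1 lay just under the threshold (0.9999). Over the other settings the number called ran from 0 to 1 in each direction.

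**Figure D4:**
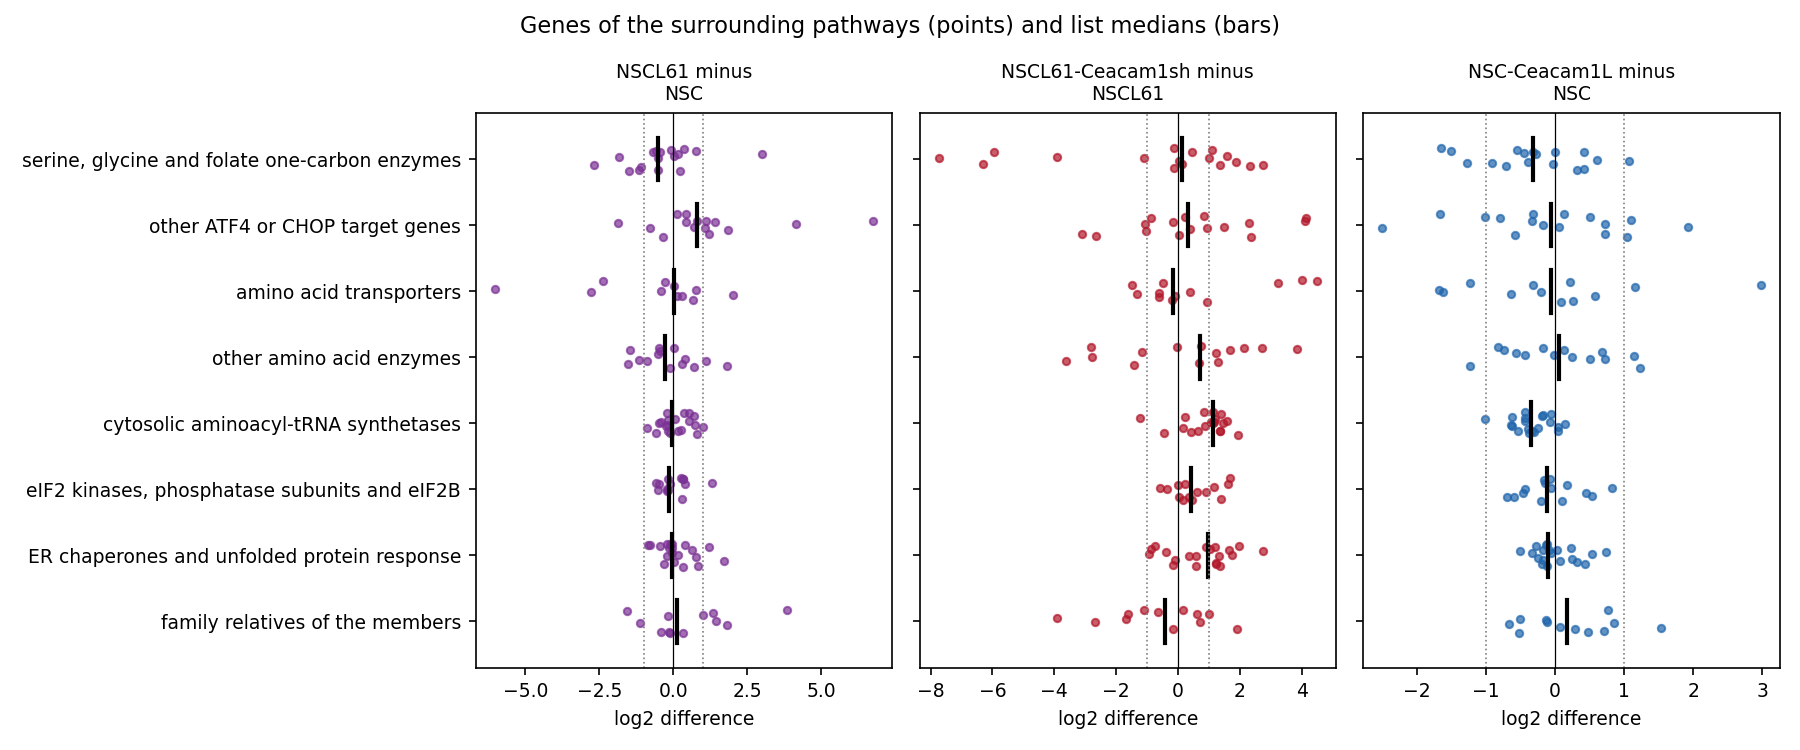
Differences in log2 scaled signal of single genes (points) in 8 lists of surrounding pathway genes, with the list median as a black bar, dotted lines at 2-fold and a different horizontal scale in each panel. Genes seen on 1 array of a pair stand at their measured difference, and the medians lie at 0.80 for the other ATF4 or CHOP targets between NSCL61 and NSC and at 1.14 for the tRNA synthetases between NSCL61-Ceacam1sh and NSCL61.

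Between NSCL61-Ceacam1sh and NSCL61, 12 of the 20 tRNA synthetases were called higher and 1 lower, against 23.4% and 24.2% of all genes, with a median of 1.14. Rars was higher by 1.94, Vars by 1.58, Kars by 1.47 and Farsb by 1.38; these charge tRNAs with arginine, valine, lysine and phenylalanine. Of the ER genes, 10 of 20 were called higher and 0 lower (median 0.97). Edem1, which directs misfolded glycoproteins to degradation, was higher by 2.76, the ER chaperone component Sdf2l1 by 1.99, the ER stress sensor Ern1 by 1.74 and the chaperone Hyou1 by 1.65. Hspa5 was higher by 1.21, and by 0.78 at the lowest over the other settings. The number called higher ran from 6 to 15 for the synthetases and from 5 to 13 for the ER genes over those settings.

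In the same comparison, 4 of 14 genes of the eIF2 list were called higher (2 to 6 over the other settings) and 0 lower. Of all genes, 23.4% were called higher, near the share of the list, and 24.2% lower. They were Eif2s1, the phosphorylated subunit of eIF2 (1.67), Eif2b3 (1.63), Impact (1.39), an inhibitor of the kinase GCN2, and Eif2ak4 (1.16), which encodes GCN2. The 10 proliferation markers were all called higher here, with a sum of 496 on NSCL61-Ceacam1sh and 60.3 on NSCL61, and their part in these 3 lists was not tested.

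The other ATF4 or CHOP targets did not share a direction between NSCL61-Ceacam1sh and NSCL61. Of 16, 5 were called higher and 4 lower, against 23.4% and 24.2% of all genes. Stc2 was higher by 4.16, Tnfrsf10b, a death receptor that CHOP is known to induce, by 4.11 and Cebpb by 2.28. Ddit4, an inhibitor of mTORC1 (-3.09), and Vldlr, a lipoprotein receptor (-2.66), were lower, and both are also known to respond to hypoxia. The hypoxia and glycolysis genes summed to 654 on NSCL61-Ceacam1sh and 455 on NSCL61. Of these 10, 2 were called higher and 2 lower, and their part was not tested. Atf3 was lower (-1.07, within 2-fold in 3 of the 9 other settings). Ppp1r15a differed by 0.96, under 2-fold.

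The one-carbon enzymes were split in this comparison, with 6 of 17 called higher and 5 lower, against 23.4% and 24.2% of all genes. The glycine cleavage enzymes Gldc and Amt, seen on NSCL61 and not well above background on NSCL61-Ceacam1sh, were lower by at least 199.7-fold for Gldc and 16.7-fold for Amt. Here "at least" gives the bright array over the higher of the dim signal and the lowest signal of any probe well above background there. Such bounds belong to the main setting. Over the other settings the log2 differences came to -5.67 (Gldc) and -2.52 (Amt) at the nearest to 0, under the bounds. Aldh1l1, a known astrocyte gene, was lower (-6.31), as was Aldh1l2 (-3.92). Mthfd2 was higher by 2.32. Psph was lower (-1.09), opposite to Phgdh in the same pathway, and came to -0.66 at the nearest to 0 over the other settings. The astrocyte markers summed to 3.75 on NSCL61-Ceacam1sh and 702 on NSCL61, and their part was not tested.

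Between NSC-Ceacam1L and NSC, where 0 of 10 members were called, single genes around them did differ. Of the one-carbon enzymes 1 of 17 was called higher and 3 lower, against 10.5% and 6.05% of all genes. Mthfd2 (-1.66), Shmt1 (-1.51) and Mthfd1l (-1.28) were lower, and Aldh1l2 was higher by 1.07. Of the other ATF4 or CHOP targets 3 of 16 were called higher and 3 lower. Atf3 was higher by 1.93, Nupr1 by 1.10 and Ppp1r15a by 1.03, whereas Ddit4 (-2.50) and Ero1a (-1.67), an ER oxidase, were lower. Of the 9 hypoxia and glycolysis genes seen in this pair, 8 were called lower, and of the 10 proliferation markers 8 were lower. Neither was tested for its part. Among the ER and eIF2 lists 0 genes were called, and of the tRNA synthetases 1 was lower (Vars, -1.01). That call was kept in 2 of the 9 other settings, among them the one without the dim filter, which cannot change the difference. Vars came to -0.64 at the nearest to 0 over the other settings. Over those settings the number called higher ran from 0 to 2 for the one-carbon enzymes and from 2 to 5 for the targets.

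Of 12 family relatives of the members, 5 were called higher and 2 lower between NSCL61 and NSC. Between NSCL61-Ceacam1sh and NSCL61, 1 was higher and 5 lower, and between NSC-Ceacam1L and NSC 1 was higher and 0 lower. Of all genes, 14.4%, 23.4% and 10.5% were called higher in these comparisons in that order, and 14.0%, 24.2% and 6.05% lower. The number called higher ran from 0 to 4 between NSCL61-Ceacam1sh and NSCL61, and from 1 to 4 between NSC-Ceacam1L and NSC, over the other settings. Trib1 and Trib2, the other tribbles pseudokinases, differed by 1.43 and -1.57 between NSCL61 and NSC, where Trib3 differed by 4.41. Between NSCL61-Ceacam1sh and NSCL61 they differed by -0.16 and -1.09. Sesn1, a sestrin known as a p53 target, was higher in NSCL61 than in NSC by 1.34 and lower in NSCL61-Ceacam1sh than in NSCL61 (-2.69). Sesn3 differed by -0.41 in the first of these and by -1.60 in the second. Cebpd, a C/EBP factor, was higher by 3.83 in NSCL61 than in NSC and by 1.54 in NSC-Ceacam1L than in NSC.

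Set against their own mean over the 4 arrays, the members averaged 0.54 on NSCL61-Ceacam1sh, 0.49 on NSCL61, -0.50 on NSC-Ceacam1L and -0.54 on NSC (log2). The comparison covered 12479 genes that were above background on every array. The 10 nearest to this mean profile by Euclidean distance were Zfp296 (0.0757), Sirt1 (0.0763), Tbc1d9, Hook2, Alkbh7, Gm6524, Rela, Fam89b, Prdm4 and Emc8 (0.144). The profile averages members with different orders of arrays, so nearness to it does not mean likeness to a single member. Between members, the closest pairs were Atf5 and Psat1 (0.453), Asns and Shmt2 (0.540), Atf5 and Shmt2 (0.689), and Ddit3 and Chac1 (0.728). The farthest pair was Trib3 and Phgdh (4.65).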

How the data were processed

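Total RNA from 4 cultures was measured on 1 single-colour Agilent mouse array each (design 028005, coordinates on mm9, per the file headers). The deposited intensity values are processed signals with the scanner software's background already subtracted and its error model for each spot. The file headers give Agilent Feature Extraction 10.7.3.1 (protocol GE1_107_Sep09), and the submitters' processing notes give 9.1. The table of log2 values that the authors deposited was an alternative. Its differences between arrays had slopes of 0.9998 to 0.9999 against those of the scaled scanner signals, which settled scale and direction. Its centring stayed unknown, with column medians of 0.03 for NSCL61-Ceacam1sh, 0.00 for NSCL61, -0.20 for NSC-Ceacam1L and 0.25 for NSC.

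Of 62976 spots, 59305 were not controls and made up 55681 probes. Of these, 31398 were named through accessions (27247), symbols (3586) or older symbols (565) in the RefSeq gene table, and 24283 had no name. Outlier spots were left out (147, 144, 143 and 187 on NSCL61-Ceacam1sh, NSCL61, NSC-Ceacam1L and NSC), and no spot was saturated. Each array was scaled to the 75th percentile of its non-control signals (541, 439, 571 and 480.0 in that order) before log2 was taken. The median modelled error was 0.15 on each array. A gene's probe with the highest mean over the arrays stands for it. Genes counted in a comparison were above background on 1 or both of its arrays, and calls were made at 2-fold.

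The members and gene lists were chosen with earlier results of these data known. The genes named are the 10 members, 12 fixed pathway genes (Psph, Mthfd2, Aldh1l2, Atf3, Cebpb, Ppp1r15a, Slc7a11, Hspa5, Trib1, Trib2, Sesn1 and Sesn3), at most the 4 largest called genes of each list and comparison, and the 10 genes nearest to the members' mean profile. Alternatives were other scalings (median, spike-in, quantile, cyclic loess and the percentile over probes seen on all arrays), normexp background correction (limma 3.58.1 in R 4.3.3), no filter on dim probes, the mean over a gene's probes, the deposited table, and a 1.5-fold call. One of the neural stem cell markers first listed is not reported here.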

Additional observations from a re-analysis of the deposited data

How the results depend on the processing

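Every comparison rests on 1 array per group, so position on the slide, culture and group cannot be told apart, and modelled errors cover technical spread within an array. No paired analysis was possible because each group had 1 array and the labels give no replicate numbers. Of the counts and medians, 117 values stayed within 1.5 times or within the modelled error and 30 moved beyond it. The members' median ran from -0.10 to 0.20 between NSCL61 and NSC over the other settings and kept its sign in 8 of 9. Between NSCL61-Ceacam1sh and NSCL61 it ran from -0.32 to 0.45 and kept its sign in 6 of 9. The scalings moved the median of all genes seen on both arrays by up to -0.23 between NSCL61 and NSC (spike-in), by 0.42 (median) and 0.43 (spike-in) between NSCL61-Ceacam1sh and NSCL61, with -0.18 for the percentile over probes seen on all arrays, and by 0.13 (quantile), 0.22 (cyclic loess), 0.17 (that percentile) and 0.37 (spike-in) between NSC-Ceacam1L and NSC. With spike-in scaling the members' median was -0.10 between NSCL61 and NSC, 0.45 between NSCL61-Ceacam1sh and NSCL61 (0 members lower) and 0.39 between NSC-Ceacam1L and NSC (2 members higher, Chac1 at 1.23 and Ddit3 at 1.13), where 2475 genes were called higher and 463 lower. Median scaling gave 0.44 and 0 members lower between NSCL61-Ceacam1sh and NSCL61. Quantile normalization gave medians of -0.32 with 1 member higher in that comparison and 0.36 between NSC-Ceacam1L and NSC, and cyclic loess gave -0.31 with 1 member higher, and 0.41 with 1 member higher and 617 genes lower. The percentile over probes seen on all arrays left 1 member higher in each of these 2 comparisons. Normexp correction called 1376 genes higher and 1391 lower between NSCL61 and NSC, and 741 and 523 between NSC-Ceacam1L and NSC, where no filter on dim probes gave 1475 lower. At 1.5-fold, 3572 genes were higher and 3349 lower between NSCL61 and NSC, and 2623 higher and 2575 lower between NSC-Ceacam1L and NSC (higher calls 50.5% of calls), with 2 members higher and 1 lower. The causes of these shifts were not tested.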

Other observations

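The amino acid transporters that ATF4 is known to act on were called in both directions. Between NSCL61 and NSC, 1 of 11 was higher and 3 lower, against 14.4% and 14.0% of all genes. Slc43a1, a carrier of large neutral amino acids, was at least 18.1-fold lower, the glycine transporter Slc6a9 was lower (-2.80), the glutamine and neutral amino acid carrier Slc1a5 was lower (-2.39), and Slc38a1, another glutamine carrier, was higher by 2.02. The log2 difference of Slc43a1 came to -2.23 at the nearest to 0 over the other settings, under its bound. Slc7a11 was not well above background on either of these arrays. Between NSCL61-Ceacam1sh and NSCL61, 3 of 12 were higher and 2 lower, against 23.4% and 24.2% of all genes. Slc1a5 was higher by 4.02, and Slc38a1 was lower (-1.48). Slc7a11, the cystine carrier, was at least 5.44-fold higher and Slc43a1 at least 2.57-fold higher. At the lowest over the other settings, their log2 differences were 1.33 (Slc7a11) and 0.42 (Slc43a1), under these bounds. In NSC-Ceacam1L against NSC, 2 of 12 were higher and 3 lower, against 10.5% and 6.05% of all genes. Slc7a11 was at least 1.83-fold higher, and 0.57 in log2 with normexp correction. It was not well above background on NSC, so that the bound is under the 2-fold of its call. Slc1a5 (-1.68), Slc43a1 (-1.62) and Slc7a1 (-1.23) were lower.

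Other enzymes of amino acid metabolism were also split. Between NSCL61-Ceacam1sh and NSCL61, 6 of 14 were higher and 5 lower, against 23.4% and 24.2% of all genes. Ass1, argininosuccinate synthase, was higher by 3.85, whereas the alanine transaminase Gpt2 (-3.62), glutamine synthetase Glul (-2.80), a known astrocyte enzyme, and Cbs (-2.79), which uses serine to make cystathionine, were lower. Between NSCL61 and NSC, 2 of 14 were higher and 3 lower, against 14.4% and 14.0% of all genes. Ass1 was higher by 1.82, and Pycr1 (-1.53), the last step of proline synthesis, Got1 (-1.46), an aspartate transaminase, and Cbs (-1.15) were lower. In NSC-Ceacam1L against NSC, 2 were higher (Glul by 1.23 and Oat, ornithine aminotransferase, by 1.13) and 1 was lower (Pycr1, -1.23). Of all genes, 10.5% were called higher and 6.05% lower there.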
